A study of Mus musculus with 4 samples.

Results

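The genes that drive and brake the cell cycle were examined in mouse liver with and without G9a in hepatocytes: cyclins, cyclin-dependent kinases (CDKs) and their inhibitors, the retinoblastoma (Rb) and E2F families, the Mcm2 to Mcm7 helicase, and a set of replication and mitosis genes (*Cdc6*, *Cdc20*, *Cdc25a* to *Cdc25c*, *Cdc45*, *Mki67*, *Top2a*, Aurora, Polo-like and Bub1 kinases, *Pcna*, *Foxm1*). They were taken by gene symbol from probe sets that the array annotation assigns to exactly 1 gene. The rule took 75 genes, measured by 169 probe sets, of 18193 genes named by 34945 such probe sets. *Ccnb1* was not among them and was not analysed here.

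All 4 mice were males backcrossed to C57BL/6 that carried the albumin-Cre transgene and had been given diethylnitrosamine (DEN) and carbon tetrachloride (CCl4). DEN, a carcinogen that damages DNA, was injected at 25 mg/kg on day 15 after birth, and CCl4, a hepatotoxin, followed in 22 weekly injections of 0.5 ml/kg. The 2 WT mice were Alb-Cre; G9a+/+ and the 2 G9aΔHep mice, labelled G9aKO, were Alb-Cre; G9aflox/flox, and total RNA of their non-tumorous liver at 30 weeks of age was hybridised to 1 GeneChip Mouse Genome 430 2.0 array a mouse. Albumin-Cre is a driver of recombination in hepatocytes, and G9a in the other cells of the liver was not measured apart from them here. There was no group without DEN and CCl4, so every value below is from chronically injured liver.

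A cell enters division when D cyclins bind CDK4 or CDK6 and phosphorylate Rb proteins, which frees E2F factors to switch on the genes of DNA synthesis. Cyclin E and cyclin A with CDK2 then start and carry replication at origins loaded with the Mcm helicase, and cyclin B with CDK1 drives mitosis. Inhibitors such as p21, the product of *Cdkn1a*, stop these kinases after DNA damage. Hepatocytes of the adult liver are mostly quiescent and re-enter the cycle after injury, when cyclin D1 is one of the genes induced.

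The MAS5 signal is a linear brightness value, and each probe set is called Present, Marginal or Absent on each array. The arrays had the same 2% trimmed mean signal, 500, and 41.3% to 43.9% of all probe sets were called Present. *Ehmt2*, the gene of G9a, gave signals of 640.4 and 493 in WT liver and 174 and 164 in G9aΔHep liver, where it was not called Present on either array. The WT signal read 3.33-fold higher on mean log2 signals (limma adjusted p = 0.063). Such folds include readings called Absent and do not allow for the spread between mice. Whether the *Ehmt2* probes lie in the deleted part of the gene was not checked. Differences are log2 of G9aΔHep over WT throughout, and p-values are from limma with Benjamini-Hochberg adjustment over 10350 genes that had a probe set Present on at least 2 arrays. With 2 mice a group they are imprecise and a weak basis for any statement about other mice. They rest on the spread between these mice and on a variance trend over all genes (4.02 prior degrees of freedom). An exact permutation test of 2 against 2 cannot go below p = 0.33.

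Cyclin D1 was the only cell cycle gene called higher in G9aΔHep liver, and the call was lost under several settings. *Ccnd1* gave signals of 477 and 502 in the WT mice and 1525 and 1269.6 in the G9aΔHep mice. The groups lay far apart, with both G9aΔHep arrays above both WT arrays by more than the spread within either group, and the difference was 1.51 on the log2 scale (SE 0.17, 95% confidence interval 1.10 to 1.92, adjusted p = 0.0361), or 2.84-fold. Among the 48 genes tested, 1 was called higher and 0 were called lower, where 0.319% of all genes tested were called higher and 0.0676% were called lower. At an unadjusted p under 0.05, 7 were higher and 1 was lower, against 5.92% and 4.1% of all genes.

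The other probe sets for *Ccnd1* showed the same direction. The second gave 289 and 473 in WT and 1384 and 1309 in G9aΔHep liver, a difference of 1.86. The third was not called Present in WT liver, at 133 and 52, and read 485 and 407 in G9aΔHep liver. On mean log2 signals it read 5.35-fold higher, a fold that was 3.35 without WT array 2 and 8.54 without WT array 1. All 3 probe sets separated the groups, although the call at the tested probe set was lost under several settings. The adjusted p was 0.206 without WT array 1, 0.154 without WT array 2, 0.0823 without G9aΔHep array 1 and 0.0304 without G9aΔHep array 2, while the difference itself ran from 1.38 to 1.64. It was 0.167 without the mean-variance trend, 0.055 without the detection filter and 0.496 by the methods' t-test.

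**Figure D1:**
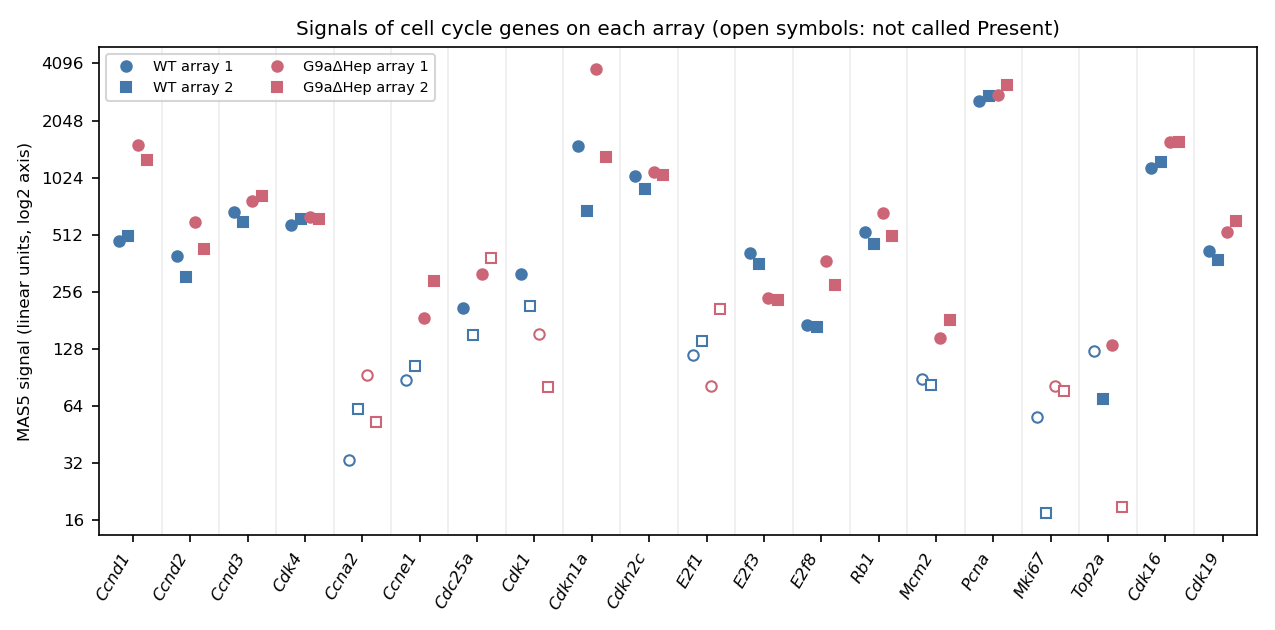
MAS5 signal (linear units on a log2 axis) of 20 cell cycle genes on each of the 4 arrays, WT in blue and G9aΔHep in red, with open symbols where the probe set was not called Present. *Ccnd1* is near 500 in both WT mice and at 1269.6 or more in both G9aΔHep mice, while *Cdkn1a* is spread widely in both groups and *Mki67* and *Ccna2* have open symbols only.

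The remaining D cyclins and their kinases were all called Present on all 4 arrays, and none of these 4 genes passed the test. *Ccnd2*, a D cyclin also used by lymphoid and connective tissue cells, read 394 and 305 in WT and 598 and 429.8 in G9aΔHep liver, a difference of 0.55 (95% interval -0.06 to 1.16, adjusted p = 0.54). All 6 of its probe sets Present on at least 2 arrays were positive, from 0.18 to 0.55. *Ccnd3* read 677 and 597 in WT and 766 and 823 in G9aΔHep liver, a difference of 0.32 (-0.08 to 0.73, adjusted p = 0.58). In both genes the G9aΔHep arrays lay above the WT arrays. *Cdk4*, the kinase partner of the D cyclins, read 575 and 619 in WT and 631 and 618 in G9aΔHep liver, a difference of 0.07 (-0.34 to 0.47), and its 3 probe sets ran from -0.24 to 0.27. *Cdk6* differed by -0.45 at its brightest probe set and by 0.52 at another, with the groups overlapping.

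The plot of differences by role places these genes beside the rest. Of the 48 genes tested, 21 (43.8%) had both G9aΔHep signals above both WT signals and 4 (8.33%) had both below, and 23 overlapped. Over all genes tested the shares were 22.3% above and 19.3% below. With each array centred on its median, 17 cell cycle genes lay above and 6 below, and the shares over all genes were not recomputed for that setting. Among the 41 cell cycle genes called Present on all 4 arrays, 19 (46.3%) were above and 3 (7.32%) below, against 21.3% and 20.6% of all genes so detected. The median difference was 0.16 over the 48 genes and 0.02 over all genes, and it stayed between 0.15 and 0.23 when any 1 array was left out. These are counts over genes measured in the same 4 livers, not over independent samples, and no test was made on them. At the tested probe set, the 48 include 3 genes with no Present call in WT liver and 1 with none in G9aΔHep liver. Of these, *Ccne1*, *Mcm2* and *Cdkn3* entered the test only through the group where they were higher. *Mcm6* had another probe set Present on all 4 arrays.

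**Figure D2:**
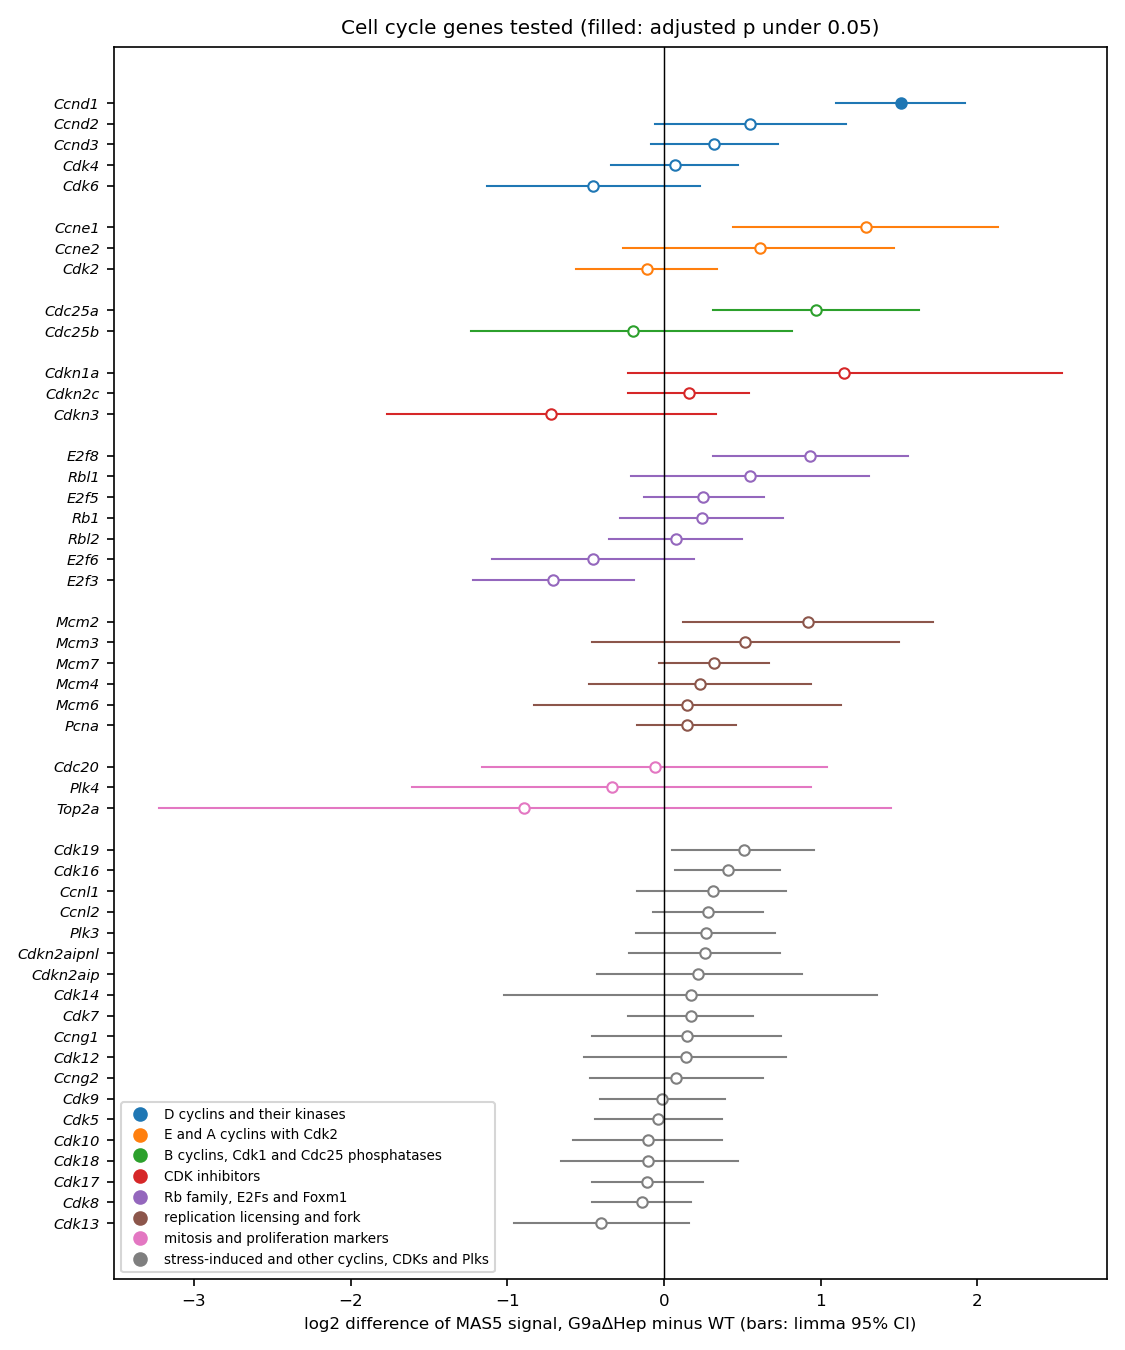
Log2 difference of MAS5 signal (G9aΔHep minus WT, x axis) of the 48 tested genes with limma 95% confidence intervals (bars), grouped and coloured by role. *Ccnd1* is the filled point, at 1.51, and the intervals of *Ccne1*, *Cdc25a*, *E2f8*, *Mcm2*, *Cdk16*, *Cdk19* and *E2f3* also leave 0 without an adjusted p under 0.05.

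Cyclin E genes were higher on both G9aΔHep arrays without passing the test. *Ccne1* was not called Present in WT liver, at 87.5 and 104, and was Present in both G9aΔHep mice, at 185 and 293. It thus entered the test only through the group where it was higher. On mean log2 signals it read 2.44-fold higher in G9aΔHep liver (fitted difference 1.29, SE 0.35, interval 0.44 to 2.13, adjusted p = 0.31). The fold was 1.94 without G9aΔHep array 2 and 3.07 without G9aΔHep array 1. A second *Ccne1* probe set, Present on 1 G9aΔHep array only, read 96.6 and 115 against 231 and 353. *Ccne2* was Present on all arrays, at 109 and 83 in WT and 126 and 166 in G9aΔHep liver (0.61, interval -0.26 to 1.47, adjusted p = 0.63). Their kinase *Cdk2* differed by -0.11 (-0.56 to 0.34), with the groups overlapping. Neither A cyclin was detected: *Ccna2*, which carries S phase, was Absent everywhere at 33.2 and 61.5 in WT and 93.3 and 52.8 in G9aΔHep liver, and *Ccna1* was Absent everywhere too.

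*Cdc25a*, the phosphatase that activates CDK2, read 210.5 and 152 in WT and 317 and 385 in G9aΔHep liver, with 1 Present call in each group. The difference was 0.97 (SE 0.27, adjusted p = 0.32), and a second probe set, Present on all arrays, gave 0.67 with 212 and 143 against 259 and 299.5. Both probe sets had the G9aΔHep arrays above the WT arrays. *Cdc25b* differed by -0.20 with overlapping groups, and *Cdc25c* was Absent on every array.

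For the kinase and cyclins of mitosis the arrays held little signal. *Cdk1*, the mitotic kinase, was called Present on 1 array only and was not tested: its signals were 319 and 216 in WT and 154 and 80.3 in G9aΔHep liver. It thus lay lower on both G9aΔHep arrays, and no fold is given since 1 WT array was not called Present either. *Ccnb2* was Absent throughout, at 118 and 97.8 in WT and 87.7 and 80.5 in G9aΔHep liver, and *Ccnb3* was Absent throughout at signals under 25. In *Ccnd1*, *Ccne1* and *Cdc25a* both G9aΔHep arrays lay above the WT arrays and in *Cdk1* below them, and the difference between these genes was not tested.

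Among the CDK inhibitors tested, *Cdkn1a* had the largest difference and the widest spread. It read 1504 and 680.0 in WT and 3821 and 1321 in G9aΔHep liver, a difference of 1.15 (SE 0.57, interval -0.23 to 2.54, adjusted p = 0.562). The groups overlapped, since the second G9aΔHep mouse lay below the first WT mouse, and the difference was 0.39 without G9aΔHep array 1 and 1.92 without G9aΔHep array 2. A second probe set read 1126 and 846 in WT and 2792 and 1162 in G9aΔHep liver, a difference of 0.88 with no overlap. *Cdkn2c*, an INK4 inhibitor of CDK4 and CDK6, was nearly level at 1044 and 895 against 1102.5 and 1053 (0.16, interval -0.23 to 0.54).

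The INK4 gene *Cdkn2a*, whose products p16 and ARF restrain Rb and p53 pathways, was not called Present on any array. Its signals were 26.1 and 24.1 in WT and 120.3 and 125 in G9aΔHep liver, where 1 call was Marginal. Although these values do not overlap, neither group was detected and no fold is given. *Cdkn2b* (48.5 to 134.5) and *Cdkn2d* (209 to 364) were likewise never Present, and their groups overlapped. *Cdkn3*, a phosphatase that acts on CDKs, was Present in both WT mice, at 96.7 and 100.5, and in neither G9aΔHep mouse, at 50 and 71.7. Its WT signal read 1.65-fold higher on mean log2 signals, or 1.37-fold without G9aΔHep array 1 and 1.97-fold without G9aΔHep array 2. The difference did not pass the test, and its interval spanned 0 (-0.72, interval -1.77 to 0.33, adjusted p = 0.634).

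The E2F genes lay on both sides of 0. *E2f8*, an atypical E2F that represses E2F targets and is used in hepatocyte polyploidisation, read 169.9 and 166 in WT and 369.9 and 278 in G9aΔHep liver (0.93, SE 0.26, interval 0.31 to 1.56, adjusted p = 0.318). *E2f3*, an activator of S phase genes, read 409 and 356.5 in WT and 236 and 232 in G9aΔHep liver (-0.71, SE 0.21, interval -1.22 to -0.19, adjusted p = 0.358). Each was Present on all 4 arrays with groups that did not overlap, and neither passed the adjusted threshold. *E2f3* was the cell cycle gene with an unadjusted p under 0.05 and a lower signal. *E2f5* differed by 0.25 and *E2f6* by -0.45, both without passing the test.

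All 3 Rb family members were Present on all arrays. *Rb1* itself read 528 and 455 in WT and 666 and 503 in G9aΔHep liver, a difference of 0.24 (-0.28 to 0.76, adjusted p = 0.751) with overlapping groups. *Rbl1*, which codes for p107, was higher in both G9aΔHep mice, at 149.5 and 198 against 112 and 123 (0.55, adjusted p = 0.614). *Rbl2*, which codes for p130, differed by 0.08. *E2f1*, the best known activator, was Absent on all arrays at 118.5 and 141 in WT and 81.4 and 206.5 in G9aΔHep liver, with the groups overlapping. *E2f2*, *E2f4*, *E2f7* and *Foxm1* were Absent on all arrays too. *Foxm1*, which drives G2 and mitotic genes, read 13.8 and 33.1 in WT and 89 and 101 in G9aΔHep liver, all within the range of Absent probe sets. Its other probe sets, Absent too, gave -0.48, -0.29 and 0.08 with overlapping groups.

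Of the 9 replication genes 6 were tested, and none passed the test. All 6 lay above 0, as did 53.4% of all genes tested, but *Mcm2* and *Mcm6* had no Present call in WT liver at the tested probe set and so entered the test through the group where they were higher. *Mcm2*, a subunit of the helicase loaded at origins, was not called Present in WT liver, at 88.7 and 82.8. It was Present in both G9aΔHep mice, at 145.9 and 180.6. Even these lay under the 95% quantile of Absent probe sets on their arrays, 176.8 and 180.9. On mean log2 signals *Mcm2* read 1.89-fold higher in G9aΔHep liver (fitted difference 0.92, SE 0.33, interval 0.12 to 1.72, adjusted p = 0.443). The fold was 1.7 without G9aΔHep array 2 and 2.11 without G9aΔHep array 1. The tested probe set is of the type whose probes match several transcripts, as are those of *Mcm3* and *Mcm7*. Another *Mcm2* probe set, Absent everywhere, differed by -0.46. *Mcm7* was Present throughout, at 966 and 967 in WT and 1251 and 1167.5 in G9aΔHep liver (0.32, interval -0.03 to 0.67, adjusted p = 0.532), and its 3 detected probe sets ran from 0.05 to 0.42.

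The remaining helicase genes differed by less or not in a single direction. *Mcm3* differed by 0.52 at the tested probe set and by -0.70 at another, *Mcm4* by 0.23 and *Mcm6* by 0.15, the last 2 with overlapping groups. *Pcna*, the sliding clamp of the replication fork and a common proliferation marker, read 2609 and 2749 in WT and 2798 and 3140.0 in G9aΔHep liver, a difference of 0.15 (-0.17 to 0.46, adjusted p = 0.746). The signals lay close together in both groups. *Mcm5*, *Cdc6* and *Cdc45* were Absent on all arrays, and *Cdc6* read lower in G9aΔHep liver, at 3.33 and 7.39 against 11.5 and 14.8.

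Because E2F factors and the DREAM complex act at the promoters of such genes, the 250 bases before the start of each gene in RefSeq (GRCm38.p6) were searched on both strands for 4 E2F octamers (TTTCCCGC, TTTGGCGC, TTTCGCGC and TTTGCCGC) and for the cell cycle homology region (CHR) hexamer TTTGAA. Of 27025 promoters, 2.16% held an E2F octamer and 18.3% the CHR hexamer. Of 60 cell cycle genes with an entry, 11 (18.3%) held an E2F octamer (*Cdc25a*, *Cdc6*, *Cdk1*, *Cdk2*, *Cdkn2a*, *E2f3*, *E2f7*, *Mcm5*, *Mcm6*, *Mcm7* and *Rbl1*) and 14 (23.3%) the CHR hexamer. CCAAT stood in 34 (56.7%) of them and in 37.5% of all promoters, and TATAAA in 3 (5%) and 14.3%. *Ccnd1* had no entry. Some windows reached into the RefSeq span of their own gene, by 250 bases for *E2f8*, 61 for *Cdc25a* and 37 for *Cdk16*. Sequences of these windows are not shown, and the span was looked up only for genes with an unadjusted p under 0.05. *Mcm2* and *E2f3*, which lay on opposite sides of 0, are shown 5′ to 3′ on their own minus strand with the matches in capitals, at chr6:88898781-88899030 and chr13:29986064-29986313.
Mcm2: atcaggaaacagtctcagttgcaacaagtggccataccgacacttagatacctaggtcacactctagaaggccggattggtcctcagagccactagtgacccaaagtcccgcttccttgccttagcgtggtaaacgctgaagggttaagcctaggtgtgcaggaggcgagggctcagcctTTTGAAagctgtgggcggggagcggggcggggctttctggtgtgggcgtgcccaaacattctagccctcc
E2f3: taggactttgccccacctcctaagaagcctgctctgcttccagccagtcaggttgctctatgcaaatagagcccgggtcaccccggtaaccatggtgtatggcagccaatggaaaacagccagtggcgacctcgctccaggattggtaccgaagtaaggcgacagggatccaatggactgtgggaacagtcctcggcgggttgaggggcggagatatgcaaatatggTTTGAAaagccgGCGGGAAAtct
In *Mcm2* the capitals are a CHR hexamer 70 to 65 bases before the start. In *E2f3* they are a CHR hexamer 23 to 18 bases before the start, followed by an E2F octamer on the opposite strand (read here as GCGGGAAA) 11 to 4 bases before it. The CHR hexamer is thus in the promoter of the gene that was higher and of the gene that was lower, and 2 cell cycle genes, *Cdk1* and *E2f3*, held both motifs. A match of letters is no evidence of binding.

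Of the 9 genes of mitosis and proliferation, 6 were Present on no array. *Mki67*, the gene of the Ki-67 antigen, was Absent on all 4 arrays at 55.9 and 17.4 in WT and 81.6 and 76.3 in G9aΔHep liver. *Top2a*, the topoisomerase of replicating and mitotic cells, read 124 and 69.7 in WT and 134.5 and 18.8 in G9aΔHep liver, with 1 Present call in each group. Its groups overlapped widely (-0.89, interval -3.22 to 1.45, adjusted p = 0.794), and leaving out G9aΔHep array 2 turned the difference to 0.53. *Cdc20*, an activator of the anaphase-promoting complex, differed by -0.06, and *Plk4*, the kinase of centriole duplication, by -0.33, both with overlapping groups. *Plk1*, *Aurka*, *Aurkb*, *Bub1* and *Bub1b* were Absent on all arrays. 

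**Figure D3:**
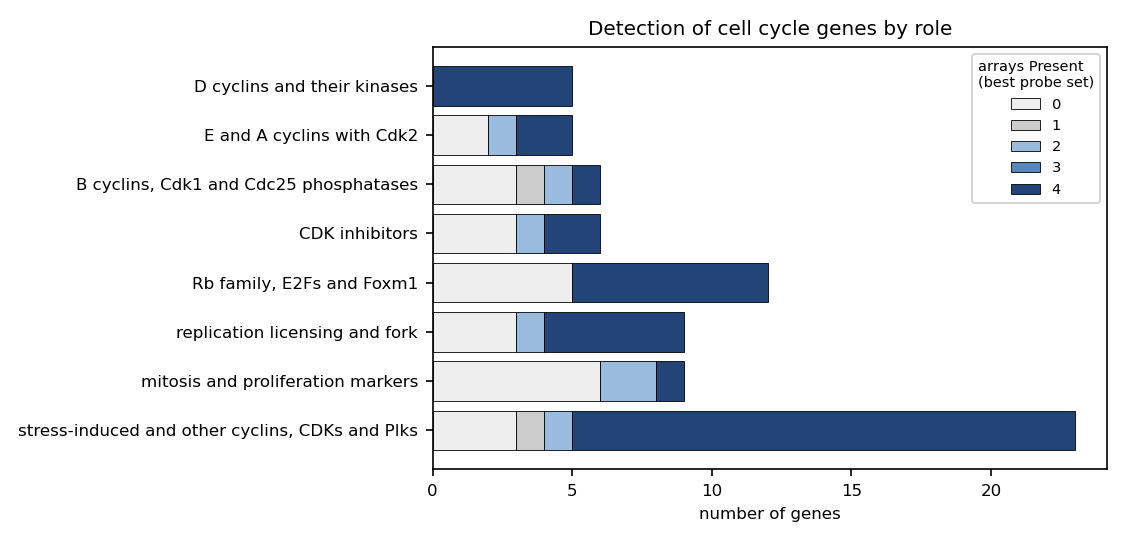
Number of cell cycle genes (x axis) by role, coloured by how many of the 4 arrays called their best probe set Present. All 5 D cyclin and D cyclin kinase genes were Present on all 4 arrays, and 6 of 9 mitosis and proliferation genes were Present on none.

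In all, 27 of the 75 genes could not be tested. For 25 of them no probe set was Present on any array, and *Cdk1* and *Cdk3* were Present on 1. All signals of 22 of the 27 lay under the 95% quantile of Absent probe sets, which was between 170.5 and 180.9 on the 4 arrays. Of the 169 probe sets, 78 and 78 were Present in the WT mice and 85 and 82 in the G9aΔHep mice. Over all single-gene probe sets the shares were 46.7% and 46.6% in WT and 48.8% and 47.5% in G9aΔHep liver.

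The kinases and cyclins outside the core cycle were mostly well detected, with 19 of 23 genes tested. *Cdk16*, a kinase activated by cyclin Y, read 1150.4 and 1234 in WT and 1579 and 1583 in G9aΔHep liver (0.41, SE 0.14, adjusted p = 0.415). Its probe set is of the type marked as shared between transcripts, and the other 4 *Cdk16* probe sets were Absent on all arrays. *Cdk19*, a kinase of the Mediator complex, read 420.2 and 378 in WT and 528 and 606 in G9aΔHep liver (0.51, SE 0.19, adjusted p = 0.463), with 0.57 at its second probe set. Its paralogue *Cdk8* lay lower in both G9aΔHep mice, at 1804 and 1959.8 against 2112 and 2039 (-0.14, interval -0.46 to 0.17, adjusted p = 0.754). Neither Mediator kinase passed the test, and the difference between them was not tested.

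Among the kinases of transcription, *Cdk7* of TFIIH differed by 0.17, with 687 and 736 in G9aΔHep against 608 and 658 in WT liver. *Cdk9* of P-TEFb differed by -0.01 (-0.41 to 0.39) and *Cdk12* by 0.14. *Cdk13*, a close relative of *Cdk12*, was lower in both G9aΔHep mice, at 409 and 389 against 626 and 442 (-0.40, interval -0.96 to 0.16, adjusted p = 0.627), and its second probe set gave -0.37. The L cyclins, partners of CDK11 in splicing, were higher in both G9aΔHep mice by 0.31 for *Ccnl1* and 0.28 for *Ccnl2*, although the 3 probe sets of *Ccnl2* ran from -0.27 to 0.35. The p53 target *Ccng1* differed by 0.15 and *Ccng2* by 0.08, with overlapping groups. *Plk3*, a stress-responsive kinase, read 749 and 981 in WT and 1009 and 1052 in G9aΔHep liver (0.27, adjusted p = 0.684). *Cdk5*, *Cdk10*, *Cdk17* and *Cdk18* differed by -0.11 to -0.04, all overlapping. *Cdk14* (0.17) and *Cdkn2aip* (0.22) also overlapped, *Cdkn2aipnl* (0.26) did not, and *Ccnb1ip1*, *Cdk20* and *Plk2* were Absent on all arrays.

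The choice of probe set changed the direction of many of these genes. Of 25 genes with at least 2 probe sets Present on at least 2 arrays, 13 had the same sign at all of them and 12 had both signs. *Ccnd1*, *Cdkn1a*, *Cdc25a*, *Cdk19*, *Ccnd2* and *Cdk13* kept a single direction. *Cdk12* ran from -0.59 to 0.73, *Mcm3* from -0.70 to 0.52 and *Cdk17* from -0.11 to 0.97.

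**Figure D4:**
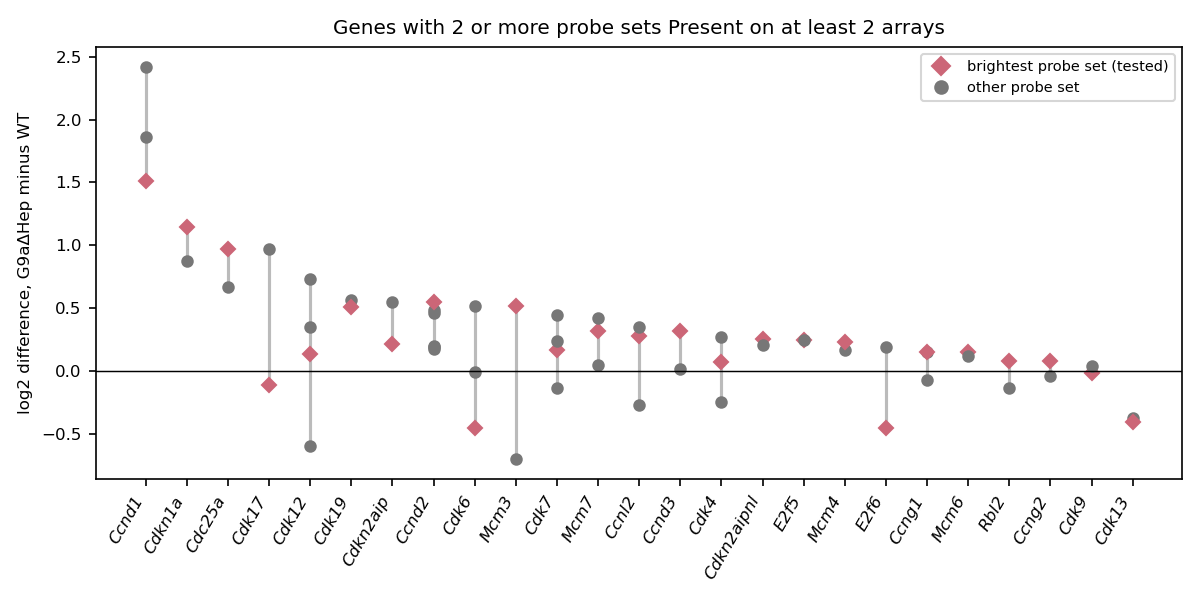
Log2 difference (G9aΔHep minus WT, y axis) at each probe set Present on at least 2 arrays, for the 25 genes with several; diamonds mark the brightest probe set, which was tested, and grey points the others. All 3 *Ccnd1* probe sets lie between 1.51 and 2.42, and 12 genes have points on both sides of 0.

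Other genes of the pathway, taken from lists of known function, did not pass the test in either direction. Of 40 further replication factors on the array 30 were tested, 8 (26.7%) with both G9aΔHep arrays above and 5 (16.7%) below, against 22.3% and 19.3% of all genes, and the median difference was 0.04. The flap endonuclease gene *Fen1* was not called Present in WT liver, at 186 and 694, and read 975 and 1034 in G9aΔHep liver (adjusted p = 0.479). It entered the test only through the group where it was higher. On mean log2 signals it read 2.80-fold higher, a fold that was 1.45 without WT array 1 and 5.41 without WT array 2. *Lig1*, the ligase that joins Okazaki fragments, read 107 and 113 in WT and 186 and 211 in G9aΔHep liver (0.85, adjusted p = 0.421). *Dbf4*, the activator of the Cdc7 kinase, went the other way, at 408 and 214 in WT and 156 and 117 in G9aΔHep liver (-1.13, adjusted p = 0.42). The replication factors thus had members on both sides. Each of the 3 showed no overlap between the groups, but they were picked for the smallest p-values, so this adds no support.

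Of 36 further mitotic genes 14 were tested, with a median of -0.05, and 5 (35.7%) had both G9aΔHep arrays below the WT arrays and 1 (7.14%) above, against 19.3% and 22.3% of all genes. The kinetochore gene *Spc24* read 283 and 347.5 in WT and 154 and 224 in G9aΔHep liver (-0.75). The centrosome kinase gene *Nek2* read 226 and 192 in WT and 136 and 120.3 in G9aΔHep liver (-0.71). *Ccnf*, the cyclin of an SCF ubiquitin ligase, differed by -0.34. Of 28 further regulators of CDKs and E2Fs 21 were tested, with a median of 0.04, and the smallest p-values belonged to the CDK subunit *Cks2* (-0.28), the DREAM subunit *Lin54* (-0.33) and the E2F partner *Tfdp2* (0.30). In each of these 6 genes the groups did not overlap. They were picked for the smallest p-values of their lists, so the lack of overlap adds no support.

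Whole liver holds many cell types, and fewer cells of a type and less RNA per cell cannot be told apart in these data. The 10 hepatocyte markers tested had a median difference of -0.03, with summed signals of 520309 to 541252 in WT and 492918 to 537261 in G9aΔHep liver. All 14 markers of macrophages and Kupffer cells lay above 0 (median 0.48), as did 53.4% of all genes tested. In 4 of them (28.6%) both G9aΔHep arrays lay above both WT arrays, near the 22.3% of all genes tested. The summed signal of the 14 was 38799 and 55839 in WT and 83338 and 52730 in G9aΔHep liver. All 9 tested markers of stellate cells and fibroblasts lay above 0 too (median 0.55), 6 (66.7%) of them without overlap, against the same 22.3%. Their list had sums of 11882 and 16621 in WT and 22248 and 13983 in G9aΔHep liver, while *Des* was never Present. The macrophage median was 0.10 without WT array 1, 0.75 without WT array 2, 0.22 without G9aΔHep array 1 and 0.79 without G9aΔHep array 2, and the stellate cell median was 0.16 without G9aΔHep array 1 and 0.90 without G9aΔHep array 2. In both lists the sums were highest in the first G9aΔHep mouse, and the second G9aΔHep mouse lay between the WT mice. The first also had the highest *Cdkn1a*, *Ccnd1*, *Ccnd2* and *E2f8*, while *Ccne1*, *Cdc25a* and *Mcm2* were highest in the second. None of these markers passed the test, and their part in the values of *Ccnd1* and of the other cell cycle genes was not tested.

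Endothelial markers had a median of 0.0062 (9 tested, sums 14234 to 17563 in WT and 15210 to 16162 in G9aΔHep liver), with members on both sides. The hyaluronan receptor gene *Lyve1* read 1025 and 1639 in WT and 759 and 550.4 in G9aΔHep liver (-1.0, adjusted p = 0.32). *Cdh5*, the gene of VE-cadherin, read 408.5 and 529.8 against 664 and 564 (0.40, adjusted p = 0.588). Neither overlapped, but both were picked for small p-values, so this adds no support. The median was 0.06 for B and plasma cell markers (5 tested, sums of 926 and 938 against 2150 and 770, *Cd79a* never Present) and -0.10 for erythroid markers (3 tested, sums of 2126 and 1825 against 1629 and 1797, *Hba-a1* and *Slc4a1* never Present). T and NK cell markers had a median of -0.19 (3 tested, sums of 974 and 758 against 918 and 724), and *Cd3e*, *Cd4*, *Cd8b1* and *Gzmb* were never Present. Of the cholangiocyte markers *Sox9* alone was tested (0.71, overlapping), and the 5 on the array summed to 410 and 427 in WT and 832 and 634 in G9aΔHep liver.

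**Figure D5:**
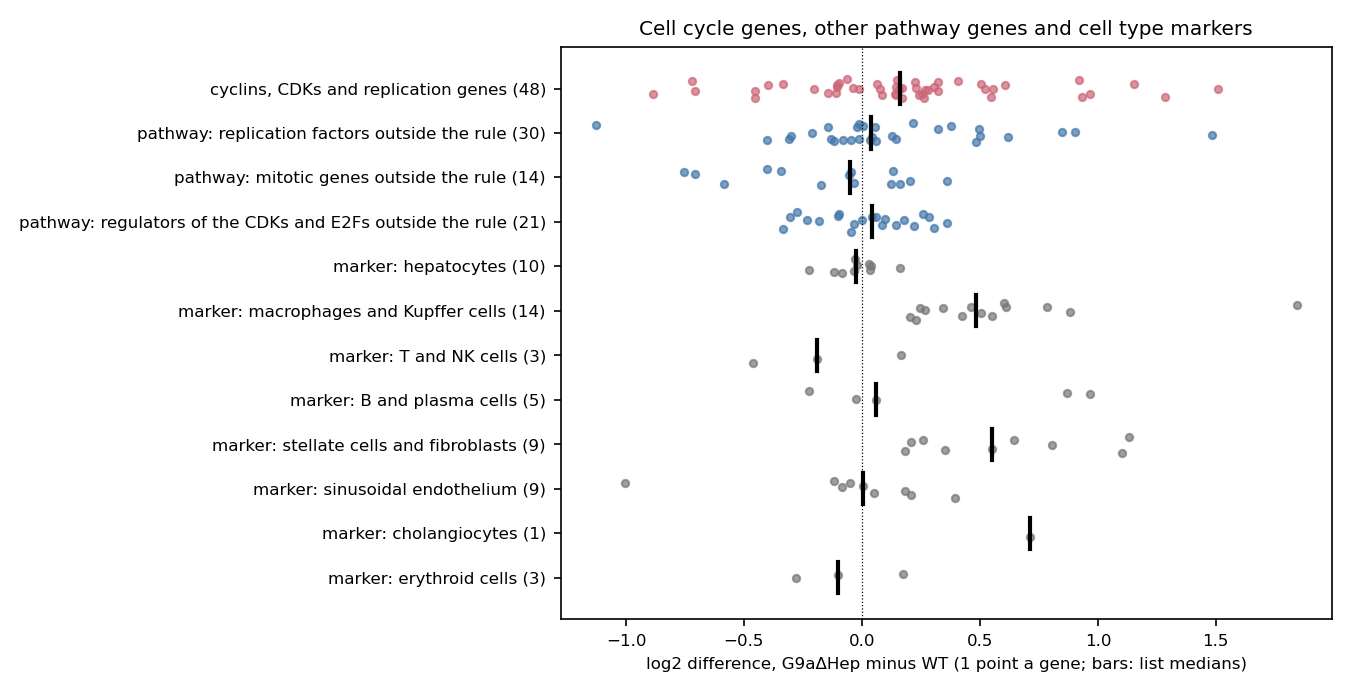
Log2 difference (G9aΔHep minus WT, x axis) of every tested gene (1 point each) in the cell cycle set, in 3 further pathway lists and in 8 lists of cell type markers, with the number tested in brackets and the median as a bar. The cell cycle genes run from -0.89 to 1.51 around a median of 0.16, and the macrophage and stellate cell markers lie wholly above 0.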

How the data were processed

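Non-tumorous liver RNA from 2 WT and 2 G9aΔHep mice was hybridised to 1 array each, and genotypes follow the submitters' labels. The authors processed the arrays with MAS5 (version not given in the sources used here). Deposited values are the MAS5 signal, a linear intensity scaled per array, with the authors' detection p-value and call. The array annotation names 1 gene for 34945 of 45101 probe sets. Genes and lists were chosen with earlier results of these data known, and 2 genes of the symbol pattern are not reported here. Each gene was tested at its brightest probe set among those Present on at least 2 arrays, on log2 signals with no pseudocount. limma 3.58.1 in R 4.3.3 was used with eBayes and its mean-variance trend (2 residual and 4.02 prior degrees of freedom), a Benjamini-Hochberg adjustment over 10350 genes and a threshold of 0.05. For a gene Present on neither array of a group, the fold compared the mean log2 signals of the groups. In the group without a Present call, each array entered with the higher of its own signal and its lowest Present signal (16 to 21.1). Signals per array were given for genes with an unadjusted p under 0.05, for a core list whatever its values, and for the 3 genes with the smallest p in each further pathway list; those of other genes were added after their values were seen. The limma step was tested on simulated data. Alternatives were quantile normalization, median centring, no trend, no or a stricter detection filter, a pseudocount of 32, every probe set on its own, the methods' t-test and leaving out each array. The number of arrays limits the precision of every value.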

Additional observations from a re-analysis of the deposited data

How the results depend on the processing

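The call of *Ccnd1*, the 1 cell cycle gene higher at an adjusted p under 0.05, was lost (0 called) without the mean-variance trend, without the detection filter and by the methods' t-test. Leaving out each array gave 0 to 1 calls, and it was lost without WT array 1, WT array 2 or G9aΔHep array 1. Over all genes, 33 higher and 7 lower calls became 0 and 0 without the trend (963 genes at an unadjusted p under 0.05) and by the methods' t-test (855 genes), 11 and 4 without the detection filter, 19 and 7 with Present calls on all 4 arrays, and 8 to 54 and 0 to 17 with each array left out. The 21 cell cycle genes with both G9aΔHep signals above both WT signals were 17 with median centring and 24 to 30 with each array left out. The 4 with both G9aΔHep signals below both WT signals became 6 with median centring, 10 without the detection filter and 7 with every probe set on its own, and 5 to 13 with each array left out, where 1 array a group makes separation easier by construction. For these settings the shares over all genes were not recomputed, so the counts have no background beside them. The median difference of the cell cycle genes, 0.16, became 0.11 with median centring and 0.15 to 0.23 with each array left out. Centring moved the median of all genes from 0.02 to -0.03. The difference of *Top2a* ran from -2.31 to 0.53 with each array left out and turned positive without G9aΔHep array 2; the cause was not tested. Of the other recomputed values of single genes, 182 kept their direction and side of the threshold and 6, all of *Ccnd1*, lost the call. *Ccne1*, *Mcm2* and *Top2a* could not be recomputed with Present calls on all 4 arrays. No paired analysis was possible because the labels share no number between a WT and a G9aΔHep mouse. Absent calls limit what can be seen in 27 of the 75 genes.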
